A study of Mus musculus with 10 samples.

Results

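The genes described here encode the translation initiation factors (eIF1 to eIF6) and the elongation factors (eEF1 and eEF2), with their kinases, binding proteins and methyltransferases. They were taken by symbol, as every gene of the count table whose name begins with Eif followed by 1 to 6 or with Eef followed by 1 or 2, and 3 genes of that pattern (Eif2ak2, Eif2s3x and Eif2s3y) were left out by the rule. This gave 68 of the 18025 genes in the table, of which 64 were among the 12697 that passed the filter on low counts. The 4 that did not pass were Eif4e1b, Eif4a3l1, Eef1akmt3 and the read-through gene Eef1akmt4-ece2. Their mean level over the 10 libraries was at most 0.108 TPM (transcript abundance corrected for length and library total).

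Messenger RNA was sequenced from the gastrocnemius, a calf muscle, of C57BL/6 wild-type mice whose labelled age is 8 weeks. There were 5 control libraries and 5 of a group labelled COPD (chronic obstructive pulmonary disease), a model that the series' title attributes to cigarette smoke. Exposure time, sex and batch are not in the labels. Nor do these say that every library had an animal of its own, so p-values speak of the spread among libraries, which may be technical. Libraries held 14085854 to 17251034 expected counts. All 10 markers fixed for the skeletal muscle fibre had counts in every library, and together they took between 133564 and 238021 CPM (counts relative to library size, scaled by TMM) in control and between 209353 and 242090.5 in COPD. The lowest of these sums was in control replicate 4. The Y-linked genes Ddx3y and Kdm5d together reached 1 CPM in every control and in replicates 2 and 3 of COPD, and stayed under it in the other COPD replicates (1, 4 and 5). Y-linked transcripts were thus unevenly spread over the groups, and the test over all 10 libraries had no term for them. Its differences between COPD and control cannot be fully told apart from this imbalance. Over all genes, edgeR's quasi-likelihood test called 8 genes, 7 of them higher in COPD, and DESeq2 called 420, 266 of them higher. The split turned with the scaling: library size alone gave 2 higher and 4 lower, and limma on log2(TPM + 1) gave 9 higher and 58 lower. Without COPD replicate 5 edgeR called 410, and without COPD replicate 2 it called 0, where 1510 had an unadjusted p under 0.05. With a term for Y-linked transcripts edgeR called 216, and over the libraries with Y-linked transcripts alone 488.

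Translation begins when eIF2 brings the initiator tRNA to the small ribosomal subunit, with eIF1, eIF1A, eIF3 and eIF5 guarding the choice of the start codon. eIF4E holds the cap of the messenger RNA, eIF4G is the scaffold and eIF4A the helicase, and the small 4E-binding proteins, which mTORC1 phosphorylates, compete with eIF4G for eIF4E. eIF2B recharges eIF2 with GTP, and kinases that phosphorylate eIF2 alpha slow it under stress. In elongation eEF1A delivers aminoacyl tRNA and eEF2 moves the ribosome along, and skeletal muscle fibres are known to change from the eEF1A1 to the eEF1A2 form after birth.

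Sequence windows of 250 bases before to 50 bases after annotated starts (RefSeq, GRCm38.p6) were at hand for 52 of the 68 genes. Eif4ebp1, whose control and COPD libraries did not overlap, was not among the 52. Windows are shown for Eif1, Eif3j1 and Eif2b5 because their control and COPD libraries did not overlap either. The window of Eef2 is shown because it is the most abundant elongation factor and carries an E-box. Each reads 5′ to 3′ on the plus strand. Capitals mark the GC box GGGCGG (bound by SP family factors), the E-box CACGTG (bound by MYC, CLOCK and related factors) or the C/EBP-ATF element TGATGNAA (bound by ATF4 with C/EBP factors), each searched on both strands. Neighbouring GC boxes may overlap one another.
Eif1, chr11:100319699-100319998: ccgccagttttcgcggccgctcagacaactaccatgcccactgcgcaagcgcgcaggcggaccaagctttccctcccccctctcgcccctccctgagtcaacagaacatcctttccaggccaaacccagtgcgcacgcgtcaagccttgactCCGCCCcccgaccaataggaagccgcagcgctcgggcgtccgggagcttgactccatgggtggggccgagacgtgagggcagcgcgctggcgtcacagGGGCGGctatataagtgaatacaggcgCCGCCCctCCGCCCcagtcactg
Eif3j1, chr2:122028330-122028629: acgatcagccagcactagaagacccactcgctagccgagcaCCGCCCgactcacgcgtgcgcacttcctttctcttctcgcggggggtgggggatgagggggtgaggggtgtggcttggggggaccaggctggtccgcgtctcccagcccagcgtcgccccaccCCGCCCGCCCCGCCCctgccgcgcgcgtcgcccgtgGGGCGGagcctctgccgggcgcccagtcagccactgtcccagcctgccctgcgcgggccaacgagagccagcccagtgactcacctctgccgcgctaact
Eif2b5, chr16:20498567-20498866: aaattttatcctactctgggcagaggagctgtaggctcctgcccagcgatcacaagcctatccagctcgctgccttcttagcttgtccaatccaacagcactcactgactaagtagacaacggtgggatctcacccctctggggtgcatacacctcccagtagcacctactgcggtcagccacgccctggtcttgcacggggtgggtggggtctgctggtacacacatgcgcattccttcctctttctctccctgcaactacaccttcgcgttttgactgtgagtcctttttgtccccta
Eef2, chr10:81176381-81176680: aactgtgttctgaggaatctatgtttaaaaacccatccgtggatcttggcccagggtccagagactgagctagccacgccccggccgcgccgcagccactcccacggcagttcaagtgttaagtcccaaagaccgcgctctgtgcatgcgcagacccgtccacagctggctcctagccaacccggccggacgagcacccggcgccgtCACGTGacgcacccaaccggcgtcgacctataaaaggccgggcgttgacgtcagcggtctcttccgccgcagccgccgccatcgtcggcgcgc
The window of Eif1 held 4 GC boxes and that of Eif3j1 held 5, whereas the window of Eif2b5 held none of the motifs and that of Eef2 held 1 E-box.

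Across the 52 genes with a window, 39 (75.0%) held a GC box, against 38.2% of all 27025 genes with windows of the same length. An E-box stood in 15 (28.8%, against 8.09% of all genes), among them Eif4e, Eif4g1, Eif4a1, Eif3f, Eif5a, Eef2 and Eef2k. The C/EBP-ATF element stood in 1, Eef2k (1.92%, against 4.51% of all genes). A gene with several starts was counted once when any of its windows held the motif, Eef1akmt4 and Eef1akmt4-ece2 share a window, and these matches are a description of letters. The 27025 genes were not limited to the 18025 of the count table. A share over the genes expressed in this muscle alone is not given.

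In COPD muscle most translation factor transcripts lay slightly below control, but none passed the test over all genes. The median log2 fold change (COPD over control) of the 64 tested members was -0.12, against -0.01 over all tested genes, and 49 of 64 (76.6%) were below 0, against 52.0% of all genes. With edgeR's quasi-likelihood test and Benjamini-Hochberg adjustment over all genes, 0 of 64 members were called, where 0.0630% of all genes were; the smallest adjusted p was 0.0963, for Eif4ebp1. DESeq2 called 3, all lower (Eif4ebp1, Eif1 and Eif3j1; 1.18% of all genes it adjusted were called lower). At an unadjusted p under 0.05, 13 members were lower (20.3%, against 6.64% of all tested genes) and 1 was higher (7.94% of all genes were higher). These counts move with the scaling: with library size alone 33 of 64 members had an unadjusted p under 0.05 (2780 of 12697 genes) and 59 were below 0, and with limma on log2(TPM + 1) these were 37 of 63 (3004 of 11190 genes) and 61. Without COPD replicate 3, 8 of 64 members and 1428 of 12809 genes had an unadjusted p under 0.05.

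Markers of other cell types were measured in the same libraries. Of 10 macrophage markers 9 had log2 fold changes below 0 (median -0.55), 4 of them with an unadjusted p under 0.05, and their summed level had means of 105 ± 21.5 CPM in control and 70.4 ± 30.9 CPM in COPD (SD, n = 5 each). Endothelial markers were below 0 in 7 of 8 (median -0.12, none with an unadjusted p under 0.05), and tendon and fibroblast markers above 0 in 6 of 8 (median 0.83, 2 with an unadjusted p under 0.05). None of these markers passed over all genes, and the part of these cells in the values of the translation factors was not tested. In whole muscle fewer cells of a type and less RNA per cell cannot be told apart.

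In 4 members all 5 COPD libraries lay below all 5 controls: Eif4ebp1, Eif1, Eif3j1 and Eif2b5. That is 6.25% of the members, against 1.55% of all tested genes, and 0 members lay above the controls throughout, against 1.29% of all genes. Their products have different roles in initiation: a competitor of eIF4G for eIF4E, a start codon factor, a subunit loosely bound to eIF3 and the catalytic subunit of eIF2B.

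**Figure D1:**
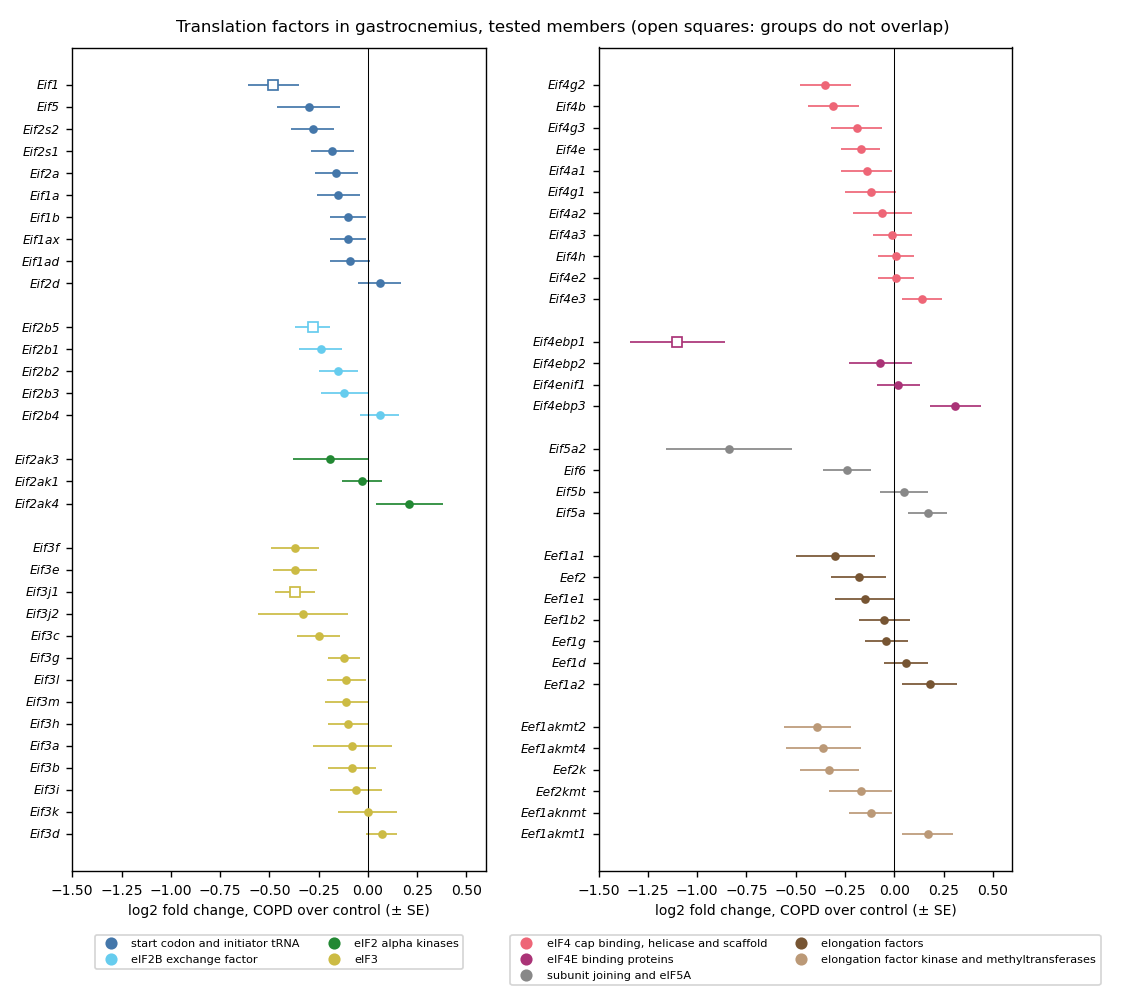
Log2 fold change (COPD over control, horizontal axis) with its standard error for the 64 tested members, grouped and coloured by role; open squares mark the 4 genes whose control and COPD libraries do not overlap. Most points lie left of 0, and Eif4ebp1, at -1.10, lies farthest from it.

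The members differed in level far more than the groups did. 19 of the 68 had a mean of at least 100 TPM over the 10 libraries, 36 lay from 10 to 100 TPM, 8 from 1 to 10 TPM and 5 under 1 TPM. Eif1 led at 1186.5 TPM, followed by Eef2 at 774 TPM, Eif5a at 651 TPM, Eef1g at 533 TPM and Eef1a2 at 477 TPM. Of the 50-base stretches of the longest annotated coding transcript of Eef1g, 64.3% also occur in transcripts of other genes. For Eif1 this share was 31.6%. Levels and ranks of such genes are uncertain to the extent that reads were split. Parts of one complex were not at one level: in eIF3 the means ran from 289 TPM for Eif3f to 22.2 TPM for its largest subunit gene Eif3a and 4.23 TPM for Eif3j2, a close copy of Eif3j1. Within eIF2, the beta subunit gene Eif2s2 stood at 116 TPM and the alpha subunit gene Eif2s1 at 18.8 TPM.

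**Figure D2:**
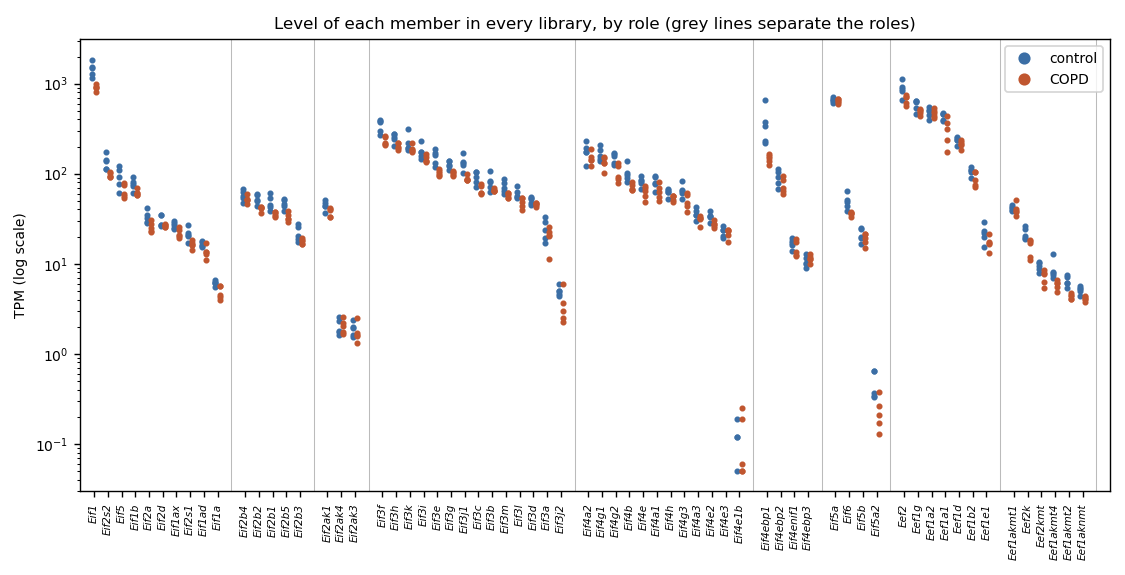
TPM (log scale) of each member in every library, with control in blue and COPD in orange, ordered by mean level within each role. Eif1 is the highest at 1186.5 TPM on average; libraries at 0 are not drawn, and 3 genes with a mean under 0.1 TPM are left out.

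Start codon selection and the initiator tRNA were covered by 10 genes, of which 9 had a log2 fold change below 0 (median -0.15) and 2 an unadjusted p under 0.05, both lower. Eif1, the factor that keeps the scanning ribosome from stopping at wrong start codons, was at 875, 1015, 905, 1249 and 1009 CPM in control replicates 1 to 5 and at 843, 756, 722, 702 and 609.8 CPM in COPD replicates 1 to 5. Every COPD library lay below every control, and COPD replicate 5 was the lowest of all 10. The means were 1010.5 ± 147 and 727 ± 84.7 CPM (SD, n = 5 each; log2 fold change -0.48 ± 0.13, SE; adjusted p = 0.127). Of the 50-base stretches of its longest annotated coding transcript, 31.6% also occur in transcripts of other genes, so its count is uncertain to the extent that reads were split among them. With limma on log2(TPM + 1) Eif1 passed (adjusted p = 0.0471), and 0.518% of all genes were called lower in that test (0.500% with log2(TPM + 0.1), where Eif1 passed too).

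The genes of the 2 subunits of eIF2 among the members had log2 fold changes below 0 and did not pass. Eif2s2 (eIF2 beta) was at 156, 192, 181, 237 and 187 CPM in the controls and at 162, 159.5, 145, 158 and 158 CPM in the 5 COPD replicates (log2 fold change -0.28 ± 0.11, SE; adjusted p = 0.275). The COPD libraries lay close together, and control replicate 1 lay within their range. Of the 50-base stretches of Eif2s2, 27.8% occur in transcripts of 1 other gene. Eif2s1 (eIF2 alpha, the subunit that stress kinases phosphorylate) was at 36.5, 34.8, 33.7, 46.4 and 36.4 CPM in the controls and at 35.1, 34.3, 28.2, 35.9 and 32.6 CPM in the COPD libraries (log2 fold change -0.18 ± 0.11, SE; adjusted p = 0.497), and its groups overlapped. Control replicate 4 was the highest library for both, and without it the log2 fold change of Eif2s1 was -0.09 (without COPD replicate 3, -0.11). The GTPase activator gene Eif5 (-0.30 ± 0.16) and the tRNA-binding factor genes Eif2a (-0.16 ± 0.11) and Eif2d (0.06 ± 0.11) were within 2 standard errors of 0 on the log2 scale.

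The exchange factor eIF2B has 5 subunits, all tested, and 4 of the 5 had log2 fold changes below 0 (median -0.15). Eif2b5, its catalytic epsilon subunit, was at 61.6, 64.7, 61.8, 71.7 and 70.3 CPM in control and at 55.7, 54.4, 46.7, 55.1 and 60.5 CPM in the 5 COPD replicates (log2 fold change -0.28 ± 0.09, SE; adjusted p = 0.219). The groups did not overlap, but the gap between COPD replicate 5 and control replicate 1 was small, and on the TPM scale COPD replicate 5 and control replicate 3 crossed (38.8 against 38.3 TPM). The regulatory subunit gene Eif2b1 was at 41.4, 42.9, 41.5, 56.0 and 50.1 CPM in the controls and at 41.4, 42.5, 35.1, 40.1 and 36.8 CPM in the COPD libraries (log2 fold change -0.24 ± 0.11, SE; adjusted p = 0.331). Eif2b4 alone lay above 0 (0.06 ± 0.10). Among the 3 eIF2 alpha kinase genes that the rule takes, which leave out Eif2ak2 (PKR), Eif2ak1 (HRI) was the most abundant at 41.0 TPM, against 2.02 TPM for Eif2ak4 (GCN2) and 1.81 TPM for Eif2ak3 (PERK). None of these 3 had an unadjusted p under 0.05 (log2 fold changes -0.03 ± 0.10, 0.21 ± 0.17 and -0.19 ± 0.19).

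**Figure D3:**
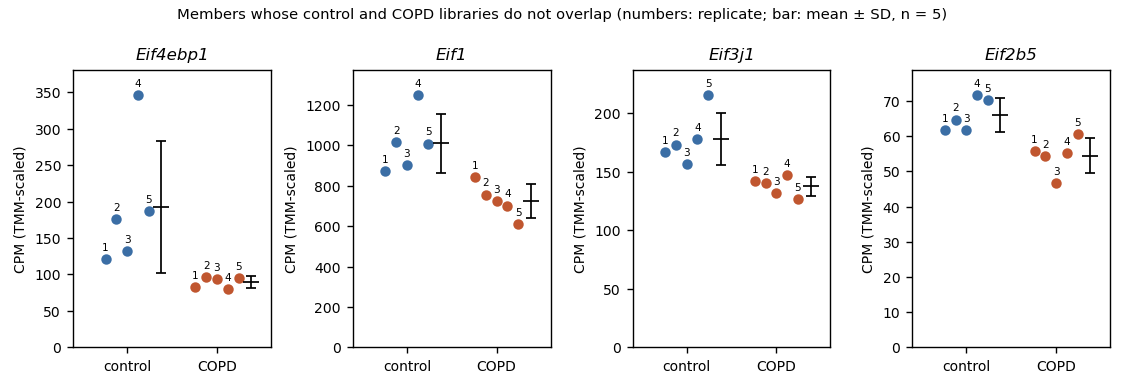
TMM-scaled CPM of Eif4ebp1, Eif1, Eif3j1 and Eif2b5 in each library (numbers are replicates; bars give the mean and SD, n = 5). In each panel the highest COPD library lies below the lowest control, and control replicate 4 of Eif4ebp1, at 346 CPM, stands above the other controls.

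The scaffold eIF3, which bridges the messenger RNA and the small subunit, was represented by 14 genes. 12 of the 14 (85.7%, against 52.0% of all tested genes) had log2 fold changes below 0 (median -0.11). An unadjusted p under 0.05 was found for 4, all lower (28.6%, against 6.64% of all tested genes that were lower). Eif3j1 was at 166, 173, 157, 178 and 216 CPM in the controls and at 142, 140.3, 132, 147 and 127 CPM in the 5 COPD replicates (log2 fold change -0.37 ± 0.10, SE; adjusted p = 0.144), with every COPD library below every control. Its exons overlap those of Spg11 on the opposite strand in GENCODE M21, and 39.8% of its 50-base stretches also occur in transcripts of its copy Eif3j2 and of 1 other gene, so its value is uncertain to that extent. Eif3j2 itself, with 91.8% of its stretches shared, had means of 6.75 ± 0.733 and 5.37 ± 2.15 CPM in control and COPD (SD, n = 5 each).

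Eif3e and Eif3f, further subunits of the complex, had the next smallest p. Of the 50-base stretches of Eif3e, 22.0% occur in transcripts of other genes. Eif3e was at 109.5, 133, 114, 143 and 152 CPM in the controls and at 114, 100.4, 91.6, 95.0 and 104 CPM in the COPD libraries (log2 fold change -0.37 ± 0.11, SE; adjusted p = 0.178), with COPD replicate 1 above control replicate 1 and at the level of control replicate 3. Eif3f was at 242, 324, 254, 307 and 307 CPM in the controls and at 263, 216, 196, 202 and 235 CPM in the COPD libraries (log2 fold change -0.37 ± 0.12, SE; adjusted p = 0.203), with COPD replicate 1 above the 2 lowest controls. For Eif3c, a core subunit, the values were 129.7, 144, 128, 167 and 162 CPM in the controls and 122, 118, 112, 129 and 135 CPM in the COPD libraries (log2 fold change -0.25 ± 0.11, SE; adjusted p = 0.309), with 2 COPD libraries inside the range of the controls. The core subunit genes Eif3a (-0.08 ± 0.20) and Eif3b (-0.08 ± 0.12) and the cap-binding subunit gene Eif3d (0.07 ± 0.08) lay near 0 on the log2 scale.

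The group of eIF4 factors that bind the cap and unwind the messenger RNA, taken by symbol and including Eif4a3, gave 11 tested genes. Of these, 8 (72.7%, against 52.0% of all tested genes) were below 0 (median log2 fold change -0.12). An unadjusted p under 0.05 was found for 2, both lower (18.2%, against 6.64% of all tested genes that were lower). Eif4g2, a relative of eIF4G that lacks the eIF4E binding site, was at 569, 732, 614, 676 and 688 CPM in the controls and at 433, 492, 435, 584 and 625 CPM in the COPD libraries (log2 fold change -0.35 ± 0.13, SE; adjusted p = 0.246). COPD replicates 1, 2 and 3 lay below all controls, while replicates 4 and 5 lay within their range. Eif4b, which stimulates the helicase, was at 219.9, 205, 219, 171 and 283 CPM in the controls and at 183, 175, 162, 191 and 175 CPM in the COPD libraries (log2 fold change -0.31 ± 0.13, SE; adjusted p = 0.289), and control replicate 4 was the lowest of the controls here. Without control replicate 5, the highest, the log2 fold change of Eif4b was -0.20.

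The genes of the cap-binding protein and its scaffold had smaller log2 fold changes, and neither had an unadjusted p under 0.05. Eif4e was at 85.4, 104, 85.9, 93.1 and 87.8 CPM in the controls and at 69.9, 79.1, 82.8, 83.7 and 88.7 CPM in the COPD libraries (log2 fold change -0.17 ± 0.10, SE; adjusted p = 0.436), and Eif4g1 at 475, 550.3, 478, 424 and 607 CPM in the controls and at 379, 558, 453, 509 and 430.1 CPM in the COPD libraries (log2 fold change -0.12 ± 0.13, SE; adjusted p = 0.722). Both pairs of groups overlapped, and leaving out 1 library gave log2 fold changes of Eif4g1 from -0.19 (without COPD replicate 2) to -0.05 (without control replicate 5). By level per length, Eif4e (72.1 TPM) stood above its relatives Eif4e2 (30.6 TPM) and Eif4e3 (22.1 TPM), and Eif4a2 (164 TPM) above Eif4a1 (71.9 TPM), a pair of helicases of nearly the same function. Of the 50-base stretches of Eif4a1, 65.3% occur in transcripts of other genes.

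Eif4ebp1, the 4E-binding protein 1 gene whose product blocks eIF4E when mTORC1 is inactive, had the largest log2 fold change of the 64. It was at 121, 176, 132, 346 and 187 CPM in control replicates 1 to 5 and at 82.6, 96.7, 93.7, 80.1 and 95.4 CPM in COPD replicates 1 to 5. The 5 COPD libraries lay within a narrow band under all controls, whereas the controls spread widely, with control replicate 4 the highest. The coefficient of variation was 47.1% in control and 8.65% in COPD, against medians of 12.4% and 10.6% over the tested members. The means were 192 ± 90.4 and 89.7 ± 7.76 CPM (SD, n = 5 each; log2 fold change -1.10 ± 0.24, SE; adjusted p = 0.0963).

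The direction of Eif4ebp1 held under all 21 alternative settings run, with log2 fold changes from -1.28 to -0.78 and adjusted p from 0.00201 to 0.198. Because every COPD library lay below every control, the settings that leave libraries out could hardly turn the sign. Eif4ebp1 passed with DESeq2 (adjusted p = 0.00201) and missed the threshold without COPD replicate 5 (adjusted p = 0.0501). Without control replicate 4 the log2 fold change was -0.78 ± 0.14 (SE). That library also held the lowest sum of fibre markers, and the part of this in the result was not tested.

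The log2 fold changes of the other 4E-binding protein genes were small or of the opposite sign. Eif4ebp2 was at 294, 329.5, 248, 247 and 348 CPM in the controls and at 238, 371, 312, 227 and 245 CPM in the COPD libraries (log2 fold change -0.07 ± 0.16, SE; adjusted p = 0.878), with both the highest and the lowest library in the COPD group. Eif4ebp3, the one member higher at an unadjusted p under 0.05, was at 7.90, 7.10, 7.18, 6.04 and 5.30 CPM in the controls and at 8.71, 7.69, 9.19, 7.73 and 8.14 CPM in the COPD libraries (log2 fold change 0.31 ± 0.13, SE; adjusted p = 0.310), and 65.5% of its 50-base stretches are shared with transcripts of 1 other annotated gene. The eIF4E transporter gene Eif4enif1 had a log2 fold change of 0.02 ± 0.11. The tests did not compare these genes with one another.

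Per length, Eif4ebp1 made up 68.6, 74.4, 73.7, 88.3 and 75.1% of the TPM of the 3 4E-binding protein genes in control replicates 1 to 5 and 63.98, 58.8, 61.4, 64.5 and 66.8% in COPD replicates 1 to 5. It was the main form in every library, and its share was lower in each COPD library than in any control. The ratio of Eif4ebp1 to Eif4e TPM was 2.96, 3.56, 3.25, 7.76 and 4.43 in control and 2.599, 2.64, 2.42, 1.99 and 2.24 in COPD. Both ratios use the transcripts alone and do not depend on library scaling; as ratios over chosen members they were not tested.

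Subunit joining and eIF5A showed no common direction. Eif5a, the hypusine-bearing factor that helps ribosomes through difficult peptide bonds, was at 459, 438, 469, 481 and 415 CPM in the controls and at 565, 561, 502, 445 and 467 CPM in the COPD libraries (log2 fold change 0.17 ± 0.10, SE; adjusted p = 0.481). COPD replicates 1, 2 and 3 lay above all controls and replicates 4 and 5 within their range, and on the TPM scale the sign turned (log2 fold change -0.04). Its relative Eif5a2 was scarce, at 1.86, 1.77, 1.197, 0.943 and 0.939 CPM in the controls and at 0.443, 0.887, 0.662, 0.543 and 1.16 CPM in the COPD libraries (log2 fold change -0.84 ± 0.32, SE; adjusted p = 0.267), so that counting error weighs heavily there. Eif6, which keeps the large subunit from joining early, was at 35.6, 41.1, 36.0, 51.9 and 37.8 CPM in the controls and at 38.3, 36.4, 33.1, 33.4 and 29.8 CPM in the COPD libraries (log2 fold change -0.24 ± 0.12, SE; adjusted p = 0.376). Without control replicate 4 the log2 fold change of Eif6 was -0.14. Eif5b, the GTPase of subunit joining, had a log2 fold change of 0.05 ± 0.12.

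Among the 7 genes grouped as elongation factors, which were taken by symbol and include Eef1e1, none had an unadjusted p under 0.05. In this group 5 of 7 (71.4%, against 52.0% of all tested genes) were below 0 (median log2 fold change -0.05). Eef2, the translocase, was at 1477, 1537, 1647, 1116 and 1856 CPM in the controls and at 1620.2, 1192, 1211, 1372 and 1349.7 CPM in the COPD libraries (log2 fold change -0.18 ± 0.14, SE; adjusted p = 0.615), and control replicate 4 was its lowest library. Its log2 fold change was -0.27 without control replicate 4 and -0.10 without control replicate 5. Eef2k, the kinase that inhibits eEF2, was at 67.0, 82.8, 74.3, 71.0 and 89.9 CPM in the controls and at 47.3, 71.7, 69.7, 45.9 and 71.8 CPM in the COPD libraries (log2 fold change -0.33 ± 0.15, SE; adjusted p = 0.344). COPD replicates 1 and 4 were far below the rest, and replicates 2, 3 and 5 lay among the lower controls. Replicates 1 and 4 lacked Y-linked transcripts, as did replicate 5. Over the libraries with Y-linked transcripts alone (in COPD, replicates 2 and 3) the log2 fold change of Eef2k was -0.11 ± 0.14 (SE). With a term for these transcripts over all libraries it was -0.12 ± 0.18. The eEF1B subunit genes Eef1b2 (-0.05 ± 0.13), Eef1d (0.06 ± 0.11) and Eef1g (-0.04 ± 0.11) lay near 0 on the log2 scale.

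The paralogs of eEF1A did not have their lowest COPD values in the same libraries. Eef1a1, the form of most tissues, was at 444, 447, 436, 455 and 368 CPM in control and at 448, 210.0, 268, 347 and 471 CPM in the 5 COPD replicates (log2 fold change -0.30 ± 0.20, SE; adjusted p = 0.517). COPD replicates 2 and 3 were the lowest of all 10 libraries and replicate 4 lay below every control too, while replicate 1 lay within the range of the controls and replicate 5 above it. Without COPD replicate 2 the log2 fold change of Eef1a1 was -0.16. Eef1a2, the form of adult muscle fibres and neurons, was at 2278, 1953, 2562, 1756 and 2369.8 CPM in the controls and at 2629, 2728, 2784, 2197 and 2041 CPM in the COPD libraries (log2 fold change 0.18 ± 0.14, SE; adjusted p = 0.590). Without control replicate 4 it was 0.11, and on the TPM scale its sign turned (-0.02). Of the 50-base stretches of Eef1a1, 59.2% occur in transcripts of other genes.

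As a share of the TPM of both paralogs, Eef1a1 made up 47.0, 51.0, 43.6, 54.1 and 41.5% in control replicates 1 to 5 and 43.7, 26.0, 30.5, 41.8 and 51.2% in COPD replicates 1 to 5. COPD replicates 2 and 3 lay well under every other library. These are the COPD libraries with Y-linked transcripts, and over the libraries with Y-linked transcripts alone (5 control, 2 COPD) Eef1a1 had a log2 fold change of -0.84 ± 0.15 (SE; edgeR adjusted p = 0.0221), a value that rests on those 2 COPD libraries. In that comparison 1.15% of all genes were called lower, and Eif3j2 was the one other member called. With a term for Y-linked transcripts over all libraries Eef1a1 was the one member called, where 0.402% of all genes were called lower.

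Markers of macrophages were low in the same libraries. All 10 listed macrophage markers had counts in every library. Their summed level was 99.6, 122, 103, 127 and 72.7 CPM in control and 79.6, 38.2, 47.8, 69.3 and 117 CPM in COPD replicates 1 to 5. COPD replicates 2 and 3 were lowest for these markers too, and control replicate 5 was the lowest control for both. Endothelial markers (8 of 8 with counts in every library) summed to 282 to 475 CPM in control, lowest in replicate 5. In COPD replicates 1 to 5 they summed to 305, 285, 299.7, 462 and 399.6 CPM, so that replicates 2 and 3 were the lowest COPD libraries there too. Adipocyte markers (5 of 7 with counts in every library) summed to 189.5 to 273 CPM in control, also lowest in replicate 5. Their sums were 209, 216, 186, 314 and 335 CPM in COPD replicates 1 to 5, lowest in replicate 3. Tendon and fibroblast markers (8 of 8 with counts in every library) summed to 573, 305, 634, 495 and 362 CPM in COPD replicates 1 to 5, highest in replicate 3, against 359.8 to 472 CPM in control. Blood markers summed to 138, 474, 446, 226 and 1415 CPM in the same COPD libraries, so that replicates 2 and 3 lay above replicates 1 and 4, and to 46.8 to 918 CPM in control. Of the 9 blood markers, Hbb-b1 and Hbb-b2 were at 0 in at least 1 library. The part of cell makeup in the Eef1a1 values was not tested.

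**Figure D4:**
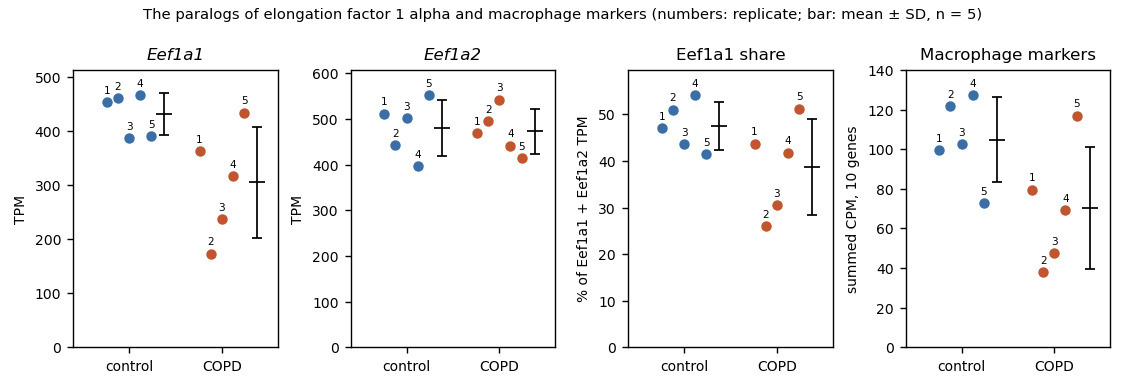
TPM of Eef1a1 and Eef1a2, the share of Eef1a1 in their sum (percent) and the summed CPM of 10 macrophage markers in each library (numbers are replicates; bars give the mean and SD, n = 5). COPD replicates 2 and 3 are the lowest 2 libraries for Eef1a1, for its share and for the macrophage markers, and not for Eef1a2.

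Among the genes of enzymes that methylate elongation factors, Eef1akmt1 led at 40.9 TPM, and the other 4 tested had means from 4.61 to 8.24 TPM. Eef1akmt2, a lysine methyltransferase of eEF1A, was at 4.18, 2.90, 4.19, 4.44 and 3.42 CPM in the controls and at 3.47, 2.88, 3.01, 2.65 and 2.57 CPM in the COPD libraries (log2 fold change -0.39 ± 0.17, SE; adjusted p = 0.309), and the groups overlapped. Eef1akmt1 had a log2 fold change of 0.17 ± 0.13, the only one of the 6 tested kinase and methyltransferase genes above 0.

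On the TPM scale the difference between groups was wider. The 68 genes together took 0.854, 0.908, 0.760, 0.988 and 0.984% of all TPM in control replicates 1 to 5 and 0.704, 0.658, 0.676, 0.696 and 0.698% in COPD replicates 1 to 5. Each COPD library lay below each control on this scale, with less spread among the COPD libraries. On the TMM scale another measure was taken, the median over tested members of the log2 CPM, centred on each gene's mean over libraries. Abundant genes weigh most in the sum of TPM, whereas each tested member weighs the same in this median. The groups overlapped in the median, which can therefore not be put down to the scale alone. In control replicates 1 to 5 the median was -0.0145, 0.0442, -0.00908, 0.161 and 0.110. In COPD replicates 1 to 5 it was -0.0142, -0.0316, -0.148, -0.0692 and -0.0452. Control replicates 4 and 5 were the highest there, and control replicates 1 and 3 lay close to COPD replicate 1. The mean shares of TPM were 0.899 ± 0.0956% for the controls and 0.686 ± 0.0191% for COPD (SD, n = 5 each). By role, the mean share went from 0.190% to 0.124% for start codon factors and from 0.179% to 0.137% for eIF3. It went from 0.0484% to 0.0247% for the 4E-binding proteins and from 0.273% to 0.225% for elongation factors. Single genes weigh heavily in such sums. Among the start codon factors, Eif1 alone went from a mean of 1466.1 to 907 TPM. Among the 4E-binding proteins, Eif4ebp1 alone went from 364.5 to 146.3 TPM, with control replicate 4 at 663.5 TPM. For subunit joining and eIF5A the mean share was 0.0730% and 0.0697%, with overlapping groups. The groups also overlapped in the shares of the eIF4 cap factors, the eIF2 alpha kinases and the elongation factor kinase and methyltransferases.

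**Figure D5:**
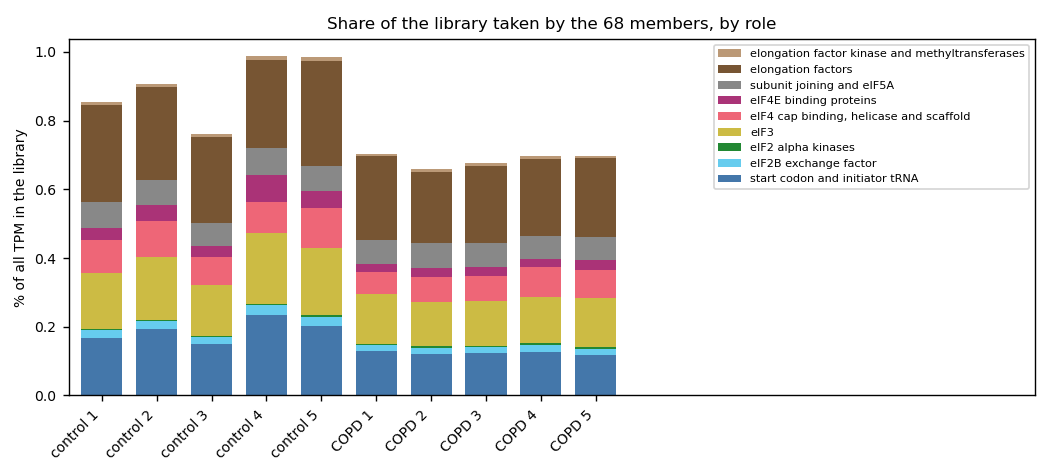
Percent of all TPM in each library taken by the 68 genes, stacked by role (bars start at 0). The 5 COPD bars reach 0.658 to 0.704% and the 5 control bars 0.760 to 0.988%.

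The median log2 fold change was lower on the TPM scale over all tested genes as well as over the members. Such medians describe the middle gene of each set, and not every gene was lower. They do not account for the wider difference in the summed shares of TPM, which was not tested. The TMM factors, which rescale library size, ran from 0.963 to 1.135 in control and from 0.915 to 0.967 in COPD. With TMM-scaled counts the median log2 fold change was -0.01 over all tested genes and -0.12 over the members. With limma on log2(TPM + 1) the median log2 fold change of all tested genes was -0.18, and that of the members -0.31, a difference of -0.12; with TMM-scaled counts the difference was -0.11. On the TPM scale 14 of 64 members (21.9%) had all COPD libraries below all controls, against 5.28% of all tested genes. Besides Eif4ebp1, Eif1 and Eif3j1 they included Eif2s2, Eif2b1, Eif2b2, Eif3e, Eif3f, Eif3g, Eif4b, Eif6, Eef2k, Eef1akmt2 and Eef1akmt4, while Eif2b5 was not among them. No member lay above the controls throughout (0.323% of all genes did).

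Genes around the translation factors, from lists that hold none of them, were also tested. Of 35 genes of mTORC1 and its regulators, none passed (median log2 fold change 0.02). An unadjusted p under 0.05 was found for 6 (17.1%, against 14.6% of all tested genes), 5 of them higher. Ddit4, an inhibitor of mTORC1, was at 12.7 ± 5.28 CPM in the controls and 102 ± 83.5 CPM in the COPD libraries (log2 fold change 3.01 ± 0.62, SE; adjusted p = 0.0872). It was at 219 CPM in COPD replicate 2 and at 13.3 CPM in replicate 5, inside the range of the controls. Rps6kb2, a kinase activated by mTORC1, was higher in every COPD library than in any control, as were 1.29% of all tested genes. Its means were 45.5 ± 4.08 CPM in the controls and 55.4 ± 5.40 CPM in the COPD libraries (log2 fold change 0.28 ± 0.10, SE; adjusted p = 0.232). Among the 4 genes of this list with the smallest p were also Lamtor2, which helps to anchor mTORC1 at the lysosome (log2 fold change 0.33 ± 0.10), and the kinase gene Akt1 (-0.62 ± 0.23). Akt1 was at 226 CPM in control replicate 4 against 85.3 to 121 CPM in the other controls.

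The integrated stress response, which acts through phosphorylated eIF2 and the factor ATF4, gave 20 tested genes and no call (median log2 fold change 0.06). An unadjusted p under 0.05 was found for 3 (15.0%, against 14.6% of all tested genes), 2 of them higher. Cebpb was at 55.3 ± 7.05 CPM in the controls and 136 ± 54.1 CPM in the COPD libraries (log2 fold change 1.30 ± 0.26, SE; adjusted p = 0.0795), with COPD replicate 5 at 54.4 CPM, inside the range of the controls. Atf5 was at 175 ± 54.1 CPM in the controls and 106 ± 22.6 CPM in the COPD libraries (log2 fold change -0.73 ± 0.22, SE; adjusted p = 0.163). Ppp1r15a, which directs the phosphatase of eIF2 alpha, was at 47.8 ± 11.5 CPM in the controls and 65.0 ± 16.1 CPM in the COPD libraries (log2 fold change 0.44 ± 0.20, SE; adjusted p = 0.341).

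Partners of the cap complex gave 16 tested genes and no call (median log2 fold change -0.03). An unadjusted p under 0.05 was found for 2 (12.5%, against 14.6% of all tested genes), Dhx29 and Ddx3x. Dhx29, a helicase that helps the small subunit through structured leaders, was lower in every COPD library than in any control, as were 1.55% of all tested genes. Its means were 25.3 ± 4.59 CPM in the controls and 17.1 ± 1.73 CPM in the COPD libraries (log2 fold change -0.57 ± 0.13, SE; adjusted p = 0.0973). Ddx3x, an X-linked helicase, was at 103 ± 16.5 CPM in the controls and 158 ± 59.7 CPM in the COPD libraries (log2 fold change 0.62 ± 0.22, SE; adjusted p = 0.240). It stood at 237 and 204 CPM in COPD replicates 4 and 5, which lacked Y-linked transcripts, and at 134 CPM in COPD replicate 1, which lacked them too. Among 16 tested genes of hypusine synthesis, ribosome recycling and release, 12 were below 0 (75.0%, against 52.0% of all tested genes) and none passed. An unadjusted p under 0.05 was found for 1 (6.25%, against 14.6% of all tested genes). This was the release factor gene Etf1, at 130.0 ± 27.3 CPM in the controls and 98.1 ± 8.39 CPM in the COPD libraries (log2 fold change -0.41 ± 0.14, SE; adjusted p = 0.220).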

How the data were processed

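The authors deposited expected counts per gene (30.7% of values not whole) and a table of TPM for the same 18025 genes. Per the submitters' processing notes the tools were RSEM 1.2.12, Bowtie2 2.2.5, HISAT2 2.0.4 and DESeq2 1.4.5 and the build was mm9, with no role or order; strand use in counting is not stated there. Groups came from sample titles. Expected counts were rounded, filtered by edgeR's filterByExpr, scaled by TMM and tested, COPD against control, by edgeR 4.0.16 (glmQLFit, glmQLFTest) with Benjamini-Hochberg adjustment over 12697 genes and a threshold of 0.05. Standard errors (SE) for edgeR are the absolute log2 fold change over the root of F. CPM are TMM-scaled. R was 4.3.3, limma 3.58.1, DESeq2 1.42.0 and matplotlib 3.10.9.

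Alternatives were DESeq2 without the filter, RLE, upper-quartile and library-size scaling, no filter, limma on log2(TPM + 1) and log2(TPM + 0.1) for genes with a mean of at least 1 TPM, voom with sample weights, a replicate block, a term for Y-linked transcripts, the libraries with Y-linked transcripts only, and leaving out each library. The fit was tested on simulated data, where it recovered 71.7% of 2-fold and 94.9% of 4-fold changes, and 5.75% of its calls were false. Smaller changes, which most members had, were not simulated. The count of members called therefore says little about differences of that size. The members and lists were chosen with earlier results of these data known. The naming rule took members past the threshold, those whose groups do not overlap, those with an unadjusted p under 0.05 and 12 fixed ones (Eif4ebp1, Eif4ebp2, Eif4e, Eif4g1, Eif2s1, Eif2b5, Eif5a, Eif6, Eef1a1, Eef1a2, Eef2 and Eef2k), 24 in all, and up to 4 genes with the smallest p from each pathway list. Members outside it are given by log2 fold change or level to describe their role, and Eif3j2 was named after its values were seen. Transcripts and exons of GENCODE M21 (GRCm38) served to list shared 50-base stretches and overlapping genes, and no coordinates were taken from it.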

Additional observations from a re-analysis of the deposited data

Results flagged for a closer look

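In 3 of the 48 groups of 5 libraries searched (24 members in control and in COPD), 1 library stood apart from the other 4, by a gap of more than 0.71 of the group's range. Chance flags about 1 in 20 groups. Eef1a1 was at 368 CPM in control replicate 5, below the other controls. Eif2s1 was at 46.4 CPM in control replicate 4, above the other controls. Eif2s2 was at 145 CPM in COPD replicate 3, below the other COPD libraries. No explanation was weighed.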

How the results depend on the processing

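The count of members called was 0 with edgeR over all libraries (14 at an unadjusted p under 0.05), 3 with DESeq2, 2 over the libraries with Y-linked transcripts only, 1 with a term for Y-linked transcripts (Eef1a1), 1 with limma on log2(TPM + 1) and 1 on log2(TPM + 0.1) (Eif1 in both). It was 0 under the other 16 settings, including each library left out. With 1 library left out, 8 to 15 members had an unadjusted p under 0.05, against 1428 of 12809 to 2652 of 12762 genes. Over all genes the count of 8 became 420 with DESeq2, 488 over the libraries with Y-linked transcripts, 216 with the term for them, 137 with voom, 67 and 65 with limma on log2(TPM + 1) and log2(TPM + 0.1) and 17 without a filter. Leaving out 1 library gave 0 to 410 genes: 3, 3, 1, 1 and 2 without control replicates 1 to 5, and 0, 5 and 410 without COPD replicates 2, 4 and 5. The median log2 fold change of the members was -0.28 with library size alone, -0.31 on log2(TPM + 1) and -0.32 on log2(TPM + 0.1), where that of all genes was -0.17, -0.18 and -0.21. Eif4ebp1 passed with DESeq2 (-1.09) and under no other setting; leaving out 1 library gave -1.23 to -0.78. With a replicate block 0 members and 7 genes were called and Eif4ebp1 was at -0.99. Same-numbered libraries deviated from their group means with correlations of -0.14 to 0.0413, and 0 of 10 correlated best with its own number, so the numbers were not taken as pairs. Of the 481 values of the other 23 named members, 468 kept their direction and side of the threshold, 6 passed and 7 changed sign. Eif4ebp2 became 0.23 over the libraries with Y-linked transcripts and 0.22 with the term for them, and Eif4g1 became 0.01 over the former. Eef1a2 became -0.02 and Eif5a -0.04 on both TPM scales. The causes were not tested. Among the members under 5 CPM, such as Eif5a2, counting error limits what can be seen.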
